A study of Homo sapiens with 8 samples.

Results

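The genes described here are 40 stress and protein-folding genes of human BE(2)-M17 neuroblastoma cells (M17 in the labels), measured after interferon gamma (IFN-γ) and without it. The members were chosen by gene symbol from a fixed list of cytosolic heat shock genes, endoplasmic reticulum (ER) chaperones, unfolded protein response genes and integrated stress genes. All 40 symbols were found among the 26372 symbols of the expression table, and all 40 were among the 13598 genes abundant enough to be tested. They fall into 15 cytosolic and mitochondrial heat shock genes, 16 genes of ER folding and ER-associated degradation, 4 genes of the unfolded protein response sensors with XBP1, and 5 genes of the integrated stress response.

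The study compared 4 libraries of M17 cells given IFN-γ with 4 libraries of untreated M17 cells, by RNA sequencing after removal of ribosomal RNA. IFN-γ was given at 10 ng/ml for 24 hours. M17 is an established line. All 8 samples are labelled M17, although the growth protocol also names SH-SY5Y, another neuroblastoma line, and the labels were followed. The libraries are of 1 time point, and the labels name no genetic change in either group. Nothing in the labels says whether replicates were separate cultures, so p-values here reflect variation from library to library, and part or all of that variation may be technical.

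Cells keep newly made proteins folded with chaperones. In the cytosol and nucleus, the factor HSF1 switches on HSP70, HSP90, HSP40 and small heat shock proteins when unfolded protein accumulates. In the ER, the sensors IRE1 (ERN1), PERK (EIF2AK3) and ATF6 start the unfolded protein response: IRE1 splices XBP1 mRNA, ATF6 is cleaved into a transcription factor, and PERK phosphorylates the translation factor eIF2α, which raises translation of ATF4. XBP1 and ATF6 act on genes of ER chaperones and of degradation of misfolded ER proteins. ATF4 acts on genes of amino acid supply and, through CHOP (DDIT3), on genes of cell death. IFN-γ signals through JAK kinases and raises the antigen presentation machinery, part of which is folded and loaded in the ER.

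In IFN-γ cells, mRNA of 10 of 16 ER members rose, led by the disulfide isomerase PDIA6 at 2.21 times and the ER HSP70 protein BiP (HSPA5) at 1.52 times the FPKM of untreated cells, and 6 ER members, among them HYOU1, HSPA13 and DNAJB9, did not pass the test. 16 of the 40 members rose and 0 fell by limma at an adjusted p under 0.05 over all 13598 genes. Of all genes tested, 13.3% rose (1809 genes) and 9.05% fell (1230 genes). At an unadjusted p under 0.05 in limma, 20 of the 40 members were higher and 2 were lower. Over all 13598 genes tested, 2518 were higher and 2183 were lower at that unadjusted threshold. At the adjusted threshold, limma without a trend and robust limma also called 0 members lower. In 19 members every IFN-γ library lay above every untreated library, and in 0 members below, against 15.4% and 12.9% of all genes tested. The median change of the 40 members was 0.15 on the log2(FPKM + 0.1) scale, and 34 were above 0, while the median over all genes tested was -0.0047.

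Most of the changes were small. Of the 16 members that rose, 2 rose by 1.5-fold or more and 14 by less, and of all genes tested 5.02% rose by 1.5-fold or more. The ER group held 10 of the 16 called members, with a median change of 0.21 on the log2 scale. The heat shock group held 4 of its 15 members, with a median of 0.10. The sensor group and the integrated stress group held 1 called member each, with medians of -0.0042 and 0.19.

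The split between rises and falls moved with the scaling. After quantile normalization, 11 members rose and 4 fell, with 1470 genes higher and 2564 lower over the whole table. With values rescaled to TPM, in which every library sums to the same total, without short RNA genes, 10 members rose and 1 fell, with 1143 genes higher and 1764 lower. These scalings moved the median of all genes by -0.07 and -0.09 on the log2 scale, and the median of the members stood at 0.07 and 0.06. PDIA6, HSPA5, HSP90B1, PDIA4, DNAJB11, MANF, SDF2L1, XBP1, DNAJA1 and HSP90AA1 were called higher in each of the 19 alternatives run.

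**Figure D1:**
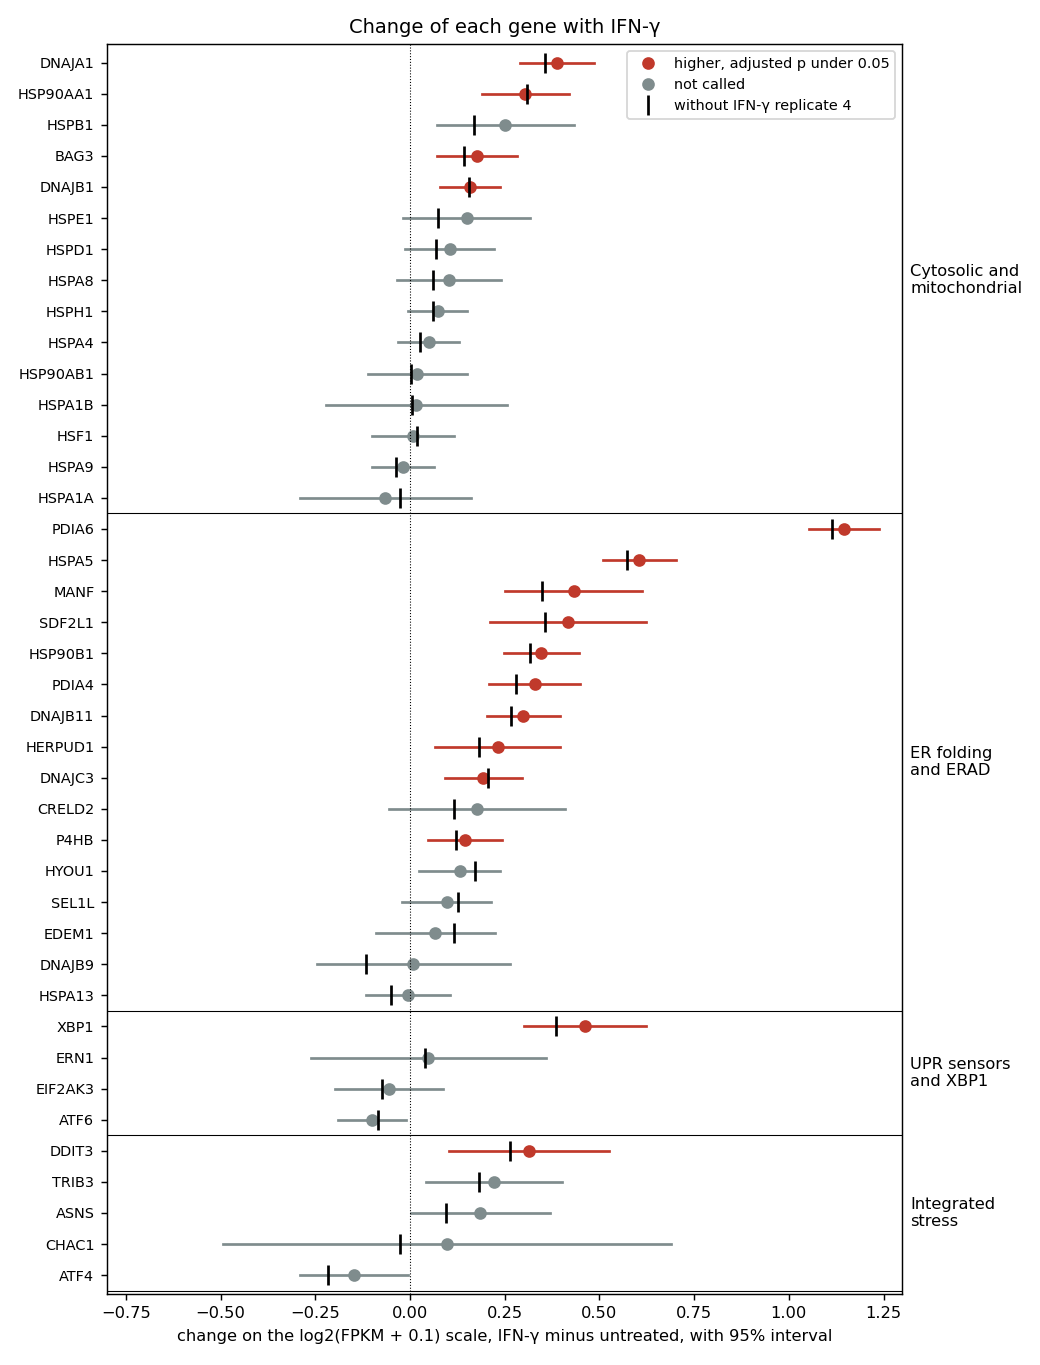
Change of each of the 40 members, IFN-γ minus untreated, on the log2(FPKM + 0.1) scale, with 95% limma intervals; red points passed an adjusted p of 0.05, grey points did not, and vertical ticks give the change without IFN-γ replicate 4. PDIA6 (1.14) and HSPA5 (0.61) lie furthest to the right, and no red point lies below 0.

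The treatment was plain in the libraries. IRF1, an interferon-induced transcription factor, averaged 125 ± 2.14 FPKM in IFN-γ libraries and 0.584 ± 0.0404 FPKM in untreated libraries (SD, n = 4 each). The sympathetic lineage markers HAND2, GATA3, DBH and TH were present in both groups. Of 12 markers of other cell types, 2 passed the filter. These were COL1A1, at 1.37 FPKM with IFN-γ and 1.86 FPKM without, and DCN, at 143 FPKM with IFN-γ and 139.9 FPKM without. CD3E was at 0, and the 12 markers summed to 133.1 to 179.1 FPKM in IFN-γ libraries and 139.6 to 149.6 FPKM in untreated libraries. Their part in the results was not tested. The steps between low FPKM values gave about 14.28 to 20.81 M fragments per IFN-γ library and 16.53 to 19.61 M per untreated library. A target of 100 M reads per library is recorded, well above these estimates. The estimates rest on GENCODE transcript lengths, which may differ from those the submitters used. In bulk RNA, fewer cells expressing a gene and less RNA per cell cannot be told apart.

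Replicate 4 of the IFN-γ group differed from its 3 companions. It was the highest of the 4 IFN-γ libraries in 28 of the 40 members (70% of them), against 36.9% of all genes tested. Its deviation from the mean of the other 3 IFN-γ libraries went with transcript length. The Spearman rho was -0.41 across 12699 genes, which are not independent replicates. Genes with transcripts under 2 kb lay 0.22 above the mean of those 3 libraries on the log2 scale in the median. The median for genes over 6 kb was -0.14. Across the other 7 libraries, each set against the rest of its own group, the same rho ran from -0.055 to 0.28. For IFN-γ replicates 1 to 3 it was 0.20 to 0.28, and their reference holds replicate 4. Without this library, 17 members rose and 1 fell, and 2165 of 13598 genes rose and 1698 fell over the whole table. With the length trend removed the members' counts were also 17 and 1, and 1980 of 12699 genes rose and 1354 fell.

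**Figure D2:**
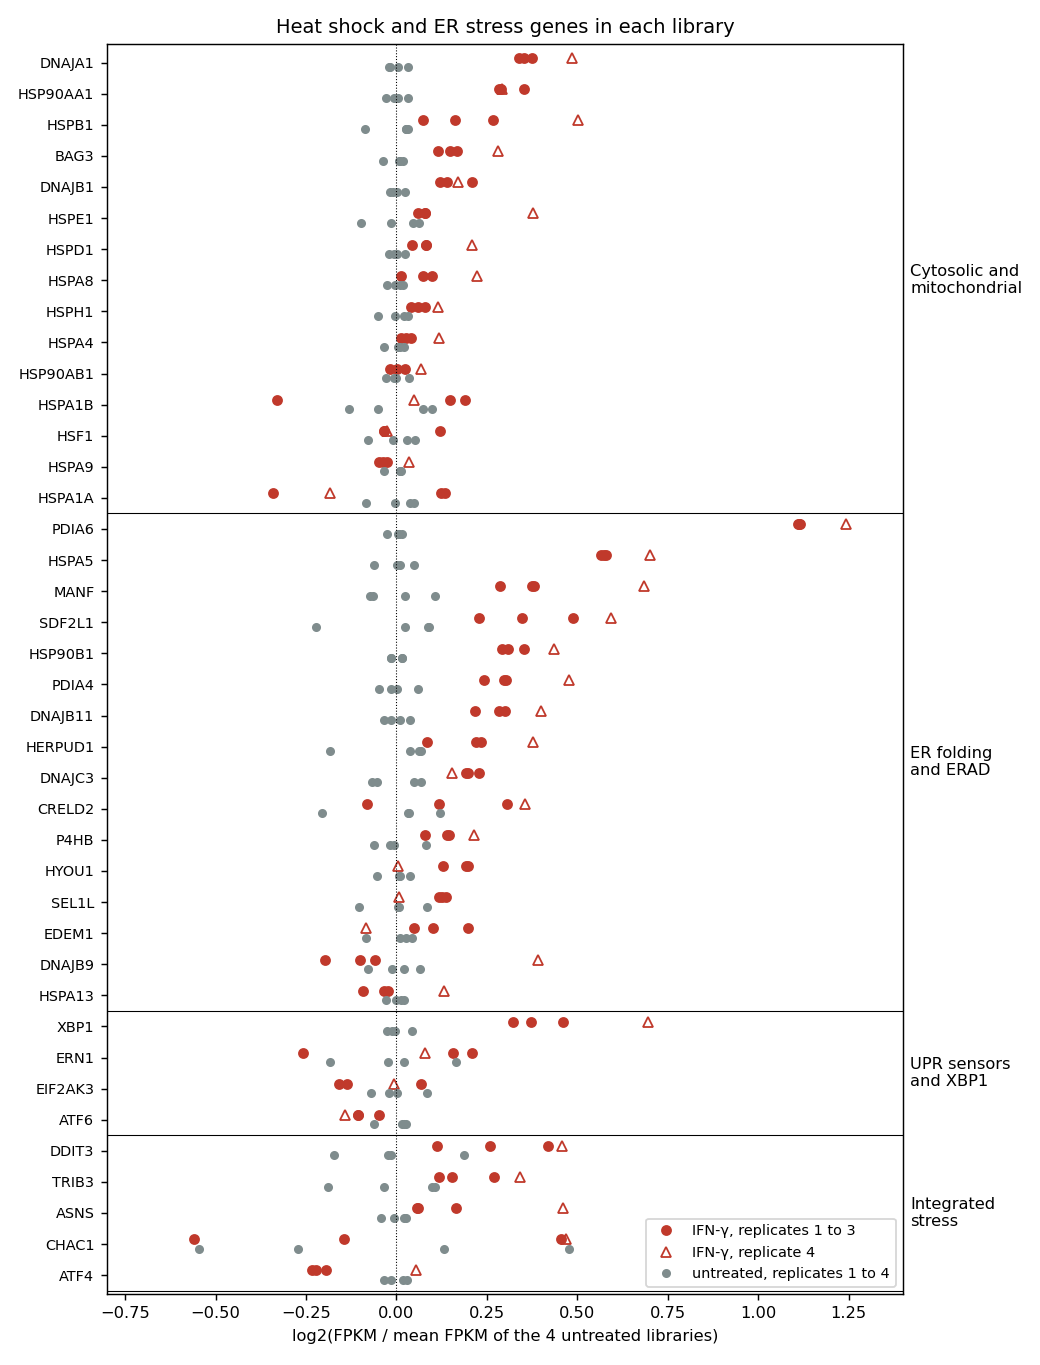
Log2 of each library's FPKM over the mean of the 4 untreated libraries, for the 40 members in their groups; red circles are IFN-γ replicates 1 to 3, open triangles IFN-γ replicate 4, and grey points the untreated libraries. In PDIA6 and HSPA5 the red symbols stand clear of the grey ones, and the triangle is the rightmost red symbol in 28 of the 40 rows.

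None of the 3 ER sensors passed the test at the mRNA level. ATF6 had 18.4, 17.7, 17.7 and 17.2 FPKM in IFN-γ libraries 1 to 4, and 19.4, 18.2, 19.2 and 19.3 FPKM in untreated libraries 1 to 4. The highest IFN-γ library lay just above the lowest untreated one, and the change of -0.10 on the log2 scale (95% interval -0.19 to -0.0098) missed the threshold (limma adjusted p = 0.108). After quantile normalization ATF6 was called lower, at -0.16 (limma adjusted p = 0.0181). EIF2AK3, which encodes PERK, averaged 8.45 ± 0.630 FPKM in IFN-γ libraries and 8.78 ± 0.391 FPKM in untreated libraries, with a change of -0.06 (95% interval -0.20 to 0.09). ERN1, which encodes IRE1, had 1.364, 1.317, 0.988 and 1.246 FPKM in IFN-γ libraries and 1.163, 1.323, 1.198 and 1.041 FPKM in untreated libraries. Its groups overlapped fully, and the interval of its change, -0.26 to 0.36, is wide at about 130.8 to 204.3 fragments per library. Splicing, cleavage and phosphorylation, through which the sensors act, are not measured by gene-level FPKM.

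XBP1, the target of IRE1, rose. It had 62.8, 69.0, 64.9 and 81.3 FPKM in IFN-γ libraries and 49.7, 51.7, 49.3 and 50.01 FPKM in untreated libraries. All 4 IFN-γ libraries were above all untreated ones, and replicate 4 was the highest. The change was 0.46 on the log2(FPKM + 0.1) scale (SE 0.072, limma adjusted p = 0.00108), and 0.38 without IFN-γ replicate 4 (limma adjusted p = 3.31e-05). The FPKM sums spliced and unspliced XBP1 mRNA.

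PDIA6, an ER disulfide isomerase that also binds BiP and IRE1, had the largest change of the 40 members. It had 252, 251, 251 and 275 FPKM in IFN-γ libraries 1 to 4, against 117, 117, 117 and 114 FPKM in untreated libraries 1 to 4. The groups were far apart, and the lowest IFN-γ library was above the highest untreated one by more than the whole range within either group. The change was 1.14 on the log2(FPKM + 0.1) scale (SE 0.042, limma adjusted p = 1.18e-08), and it was 1.00 to 1.16 over the 19 alternatives. PDIA6 overlaps ATP6V1C2 on the opposite strand, and the library kit does not mark strand. ATP6V1C2 was at 1.51 FPKM in IFN-γ libraries and 0.616 FPKM in untreated libraries, far below PDIA6.

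HSPA5 encodes BiP, the HSP70 chaperone of the ER, which also holds the sensors inactive. It had 148, 148, 147 and 161 FPKM in IFN-γ libraries, against 99.9, 99.4, 103 and 95.04 FPKM in untreated libraries. All 4 treated libraries were above all untreated ones. The change was 0.61 on the log2 scale (SE 0.044, limma adjusted p = 3.43e-06) and 0.57 without IFN-γ replicate 4. The ratio of PDIA6 to HSPA5 was 1.70, 1.70, 1.71 and 1.70 in IFN-γ libraries and 1.17, 1.17, 1.14 and 1.20 in untreated libraries, so within each library PDIA6 stood further above HSPA5 after IFN-γ. Among HSP70 proteins, the ratio of ER HSPA5 to cytosolic HSPA8 was 0.191, 0.179, 0.181 and 0.179 in IFN-γ libraries and 0.132, 0.127, 0.133 and 0.122 in untreated libraries.

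The ER stress response element is the DNA sequence through which ATF6 and XBP1, with the CCAAT-binding factor NF-Y, act on ER chaperone genes: CCAAT and CCACG with 9 bases between them. It was searched on both strands of the RefSeq promoter windows (GRCh38.p14), which run from 250 bases before to 50 bases after the annotated start. It was found in 0.0769% of 35116 windows (27 windows) and in 5 of the 39 members with a window. The percent counts windows, 35116 for 27305 symbols, whereas members are counted as genes with a match in any window. The same holds for the other elements below. The members were chosen as genes of these stress responses, so a share above that of all windows is not a test of enrichment. The 5 members with the element were PDIA6, HSPA5, XBP1 and HSP90B1, which rose, and CRELD2, which was not called. The sequences below show the element in each of these 5 members, in capitals, 5′ to 3′ on the strand of the gene. The HSPA5 sequence is all 250 bases before the start (chr9:125241344-125241593, minus strand), with the match at -66 to -48. The PDIA6 match (chr2:10812848-10812876, minus strand) is at -86 to -68 and the XBP1 match (chr22:28800598-28800626, minus strand) at -52 to -34, each shown with 5 bases on either side. HSP90B1 holds 2 matches, of which the one on the gene's strand is shown (chr12:103930211-103930239, plus strand). The CRELD2 match reads on the opposite strand, so its element appears reversed (chr22:49918529-49918597, plus strand).
HSPA5: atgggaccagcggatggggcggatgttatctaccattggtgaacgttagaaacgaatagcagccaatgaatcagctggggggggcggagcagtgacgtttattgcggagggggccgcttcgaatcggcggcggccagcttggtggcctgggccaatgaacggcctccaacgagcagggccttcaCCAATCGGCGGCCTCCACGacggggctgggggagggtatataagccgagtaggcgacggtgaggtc
PDIA6: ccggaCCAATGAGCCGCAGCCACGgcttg
XBP1: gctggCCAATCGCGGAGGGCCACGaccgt
HSP90B1: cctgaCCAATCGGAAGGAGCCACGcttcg
CRELD2: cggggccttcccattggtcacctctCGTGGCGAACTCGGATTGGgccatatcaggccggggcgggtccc

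HSP90B1, the HSP90 protein of the ER (GRP94), had 313, 323, 309.6 and 342 FPKM in IFN-γ libraries and 250.4, 255, 256 and 250.1 FPKM in untreated libraries. The groups did not overlap, and the change was 0.35 on the log2 scale (SE 0.044, limma adjusted p = 2.76e-04), or 0.19 after quantile normalization. MANF, a secreted ER protein known as a trophic factor for neurons, had 48.0, 51.2, 51.0 and 63.1 FPKM in IFN-γ libraries and 42.4, 39.98, 37.6 and 37.4 FPKM in untreated libraries. Replicate 4 was high among the treated libraries, and the change of 0.43 (limma adjusted p = 0.00341) was 0.35 without it. SDF2L1, a partner of the ER HSP40 DNAJB11, had 14.7, 12.3, 13.4 and 15.8 FPKM in IFN-γ libraries and 11.1, 11.2, 8.996 and 10.7 FPKM in untreated libraries. Its groups did not overlap, and its change was 0.42 (limma adjusted p = 0.00912). CRELD2, an ER protein with a disulfide isomerase-like activity, averaged 7.84 ± 1.05 FPKM in IFN-γ libraries and 6.91 ± 0.649 FPKM in untreated libraries. The 2 groups overlapped and its change of 0.18 had an interval of -0.06 to 0.41, which holds both 0 and the change of HSP90B1.

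**Figure D3:**
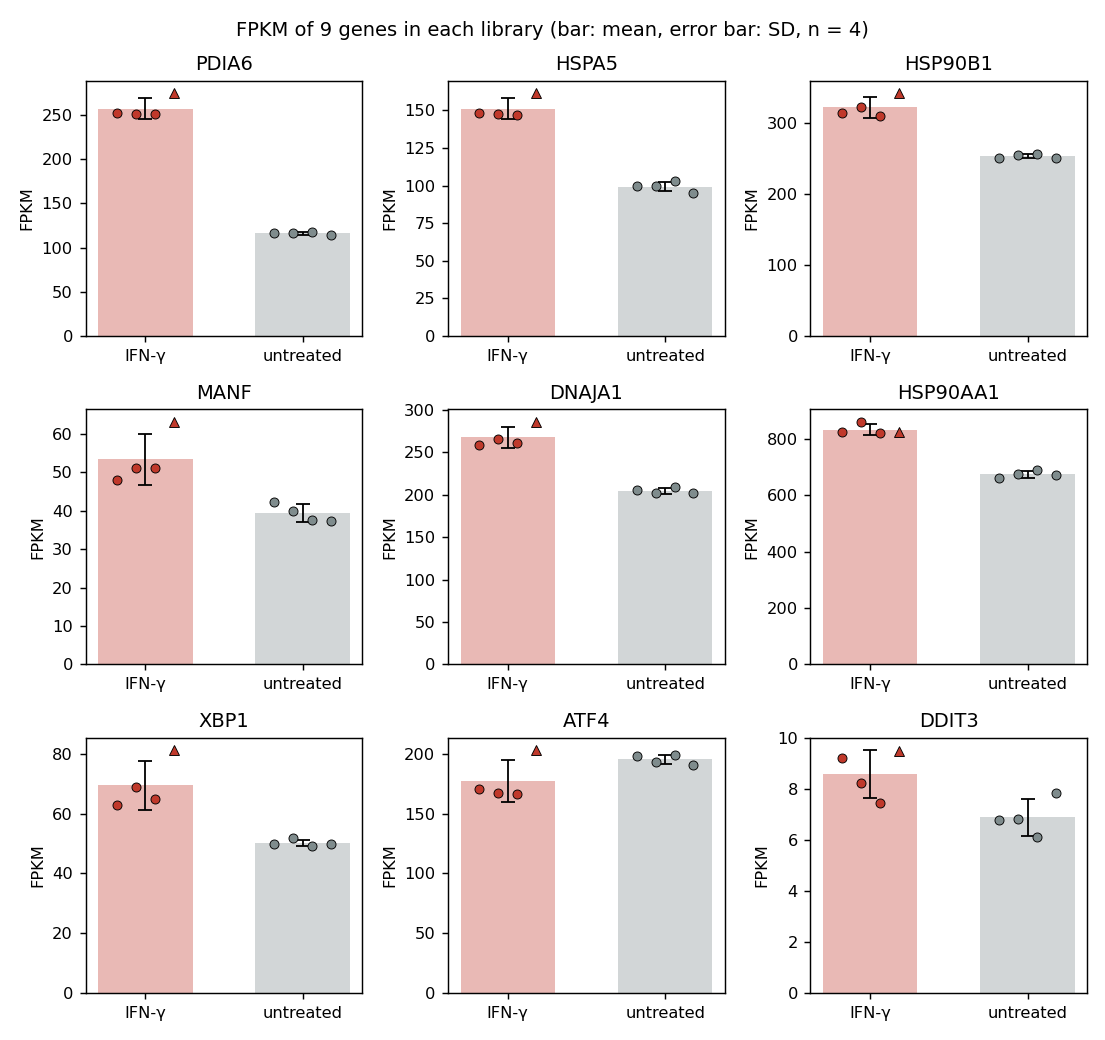
FPKM of 9 members in each library, IFN-γ on the left and untreated on the right of each panel, with bars at the group mean, error bars of 1 SD (n = 4) and triangles for IFN-γ replicate 4. The groups are apart in PDIA6, HSPA5, HSP90B1, MANF, DNAJA1, HSP90AA1 and XBP1, and the points overlap in ATF4 and DDIT3.

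The disulfide isomerases of the ER had changes of different size, and the intervals of PDIA6 (1.05 to 1.24) and P4HB (0.05 to 0.24) do not overlap. PDIA4 had 27.3, 26.3, 27.4 and 30.9 FPKM in IFN-γ libraries and 22.0, 21.5, 22.2 and 23.2 FPKM in untreated libraries, with no overlap. It rose by 0.33 on the log2 scale (SE 0.054, limma adjusted p = 0.00143). P4HB, the founding member of the family, had 84.6, 88.5, 88.1 and 92.8 FPKM in IFN-γ libraries and 84.7, 79.1, 76.6 and 79.6 FPKM in untreated libraries. Untreated replicate 1 was at the level of the lowest IFN-γ library, and the change of 0.15 (limma adjusted p = 0.0381) lost its call in 9 of the 19 alternatives, among them leaving out IFN-γ replicates 2 or 3 or untreated replicates 2, 3 or 4. It shrank to 0.0071 after quantile normalization and to 0.05 under TPM. The ratio of PDIA6 to P4HB was 2.98, 2.84, 2.85 and 2.96 in IFN-γ libraries, against 1.38, 1.47, 1.53 and 1.43 in untreated libraries.

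Among the ER HSP40 co-chaperones, DNAJB11 had 74.2, 75.0, 70.8 and 80.3 FPKM in IFN-γ libraries and 61.3, 60.4, 62.6 and 59.5 FPKM in untreated libraries, and rose by 0.30 on the log2 scale (limma adjusted p = 6.66e-04). DNAJC3, the PERK inhibitor p58IPK, had 17.4, 17.8, 17.4 and 16.9 FPKM in IFN-γ libraries and 14.6, 15.7, 15.9 and 14.5 FPKM in untreated libraries. Its groups did not overlap, and its rise of 0.19 (limma adjusted p = 0.0121) lost its call under TPM, at 0.10. DNAJB9, an IRE1 repressor and well-known target of XBP1, had 5.51, 5.15, 5.67 and 7.75 FPKM in IFN-γ libraries and 6.002, 5.87, 6.18 and 5.60 FPKM in untreated libraries. IFN-γ replicate 4 lay above all untreated libraries and IFN-γ replicates 1 and 2 below them, and the change of 0.0087 (95% interval -0.25 to 0.26) was -0.12 without replicate 4.

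HYOU1, an ER chaperone that exchanges nucleotide on BiP, had 57.8, 55.4, 58.0 and 50.8 FPKM in IFN-γ libraries and 50.9, 51.0, 51.9 and 48.8 FPKM in untreated libraries. IFN-γ replicates 1 to 3 were above all untreated libraries and replicate 4 was among them. The change of 0.13 was not called (limma adjusted p = 0.08), and without replicate 4 it was 0.17 and called (limma adjusted p = 0.00218). HSPA13, an atypical HSP70 of microsomes, averaged 22.6 ± 1.53 FPKM in IFN-γ libraries and 22.7 ± 0.344 FPKM in untreated libraries, with an interval of -0.12 to 0.11 around its change.

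HERPUD1, SEL1L and EDEM1 take part in removing misfolded proteins from the ER for degradation. HERPUD1 had 19.1, 17.4, 19.3 and 21.3 FPKM in IFN-γ libraries and 16.8, 17.1, 17.2 and 14.5 FPKM in untreated libraries. The lowest treated library was only just above the highest untreated one. Its change was 0.23 (limma adjusted p = 0.0489) and lost its call in 14 of the 19 alternatives, with adjusted p up to 0.17 in limma, among them leaving out IFN-γ replicates 1, 3 or 4 or any untreated replicate. Without IFN-γ replicate 4 its change was 0.18 (limma adjusted p = 0.0724). SEL1L averaged 13.9 ± 0.568 FPKM in IFN-γ libraries and 13.0 ± 0.695 FPKM in untreated libraries (change 0.10, 95% interval -0.02 to 0.21). EDEM1 averaged 5.85 ± 0.471 FPKM in IFN-γ libraries and 5.57 ± 0.217 FPKM in untreated libraries (change 0.07, 95% interval -0.09 to 0.22), and neither was called.

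A shorter form of the ER element, ATTGG and CCACG with 1 base between them, was found in 0.0541% of the 35116 windows and in 3 of the 39 members with a window, which were HERPUD1, SDF2L1 and HYOU1. HERPUD1 and SDF2L1 were called and HYOU1 was not. The sequences of these 3 genes are shown because each holds this form and none holds the longer one. The matches are in capitals, for HERPUD1 on the gene's strand (chr16:56932020-56932040, plus strand) and reversed for SDF2L1 (chr22:21642089-21642149, plus strand) and HYOU1 (chr11:119057249-119057309, minus strand). HYOU1 holds 2 such matches, of which the one nearer the start is shown.
HERPUD1: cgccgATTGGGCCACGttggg
SDF2L1: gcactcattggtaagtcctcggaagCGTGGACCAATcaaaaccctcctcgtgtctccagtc
HYOU1: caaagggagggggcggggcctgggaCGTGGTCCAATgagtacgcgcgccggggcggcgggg

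Together, 8 of the 39 members with a window held the longer or the shorter ER element, of which 6 rose and 2 were not called. Of all 40 members, 16 rose and 24 were not called. Whether holding an element goes with a rise was not tested, and calls of other genes with a match were not counted. A match of letters is a description of the window, not of binding, and the gamma-activated sequence TTC and GAA with 3 bases between them, found in 7.66% of windows, was in the window of 0 members.

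In the PERK arm, the transcription factor ATF4 was the member with the lowest change. It had 171, 168, 166 and 203 FPKM in IFN-γ libraries 1 to 4, and 198, 194, 199.6 and 191 FPKM in untreated libraries 1 to 4. IFN-γ replicates 1 to 3 lay below all untreated libraries, and replicate 4 lay above all of them. With all libraries, the change was -0.15 on the log2 scale (95% interval -0.29 to -0.0065) and was not called (limma adjusted p = 0.128). Without IFN-γ replicate 4, ATF4 fell by 0.22 (limma adjusted p = 8.67e-05), and it was also called lower with the length trend removed, after quantile normalization and under TPM. ATF4 output is set largely by translation, which was not measured here.

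DDIT3, which encodes CHOP, is a target of ATF4 that promotes cell death. It had 9.22, 8.24, 7.45 and 9.48 FPKM in IFN-γ libraries and 6.79, 6.82, 6.11 and 7.86 FPKM in untreated libraries. The highest untreated library was above the lowest treated one. It rose by 0.31 (SE 0.095, limma adjusted p = 0.0393), and lost its call in 11 of the 19 alternatives, among them leaving out IFN-γ replicates 1, 2 or 4 or untreated replicates 1, 2 or 3. Without IFN-γ replicate 4 its change was 0.27 (limma adjusted p = 0.0664). DDIT3 exons overlap exons of MARS and MBD6 on the opposite strand, and without strand their reads cannot be told apart. MARS was at 48.8 FPKM with IFN-γ and 48.3 FPKM without, and MBD6 at 9.78 FPKM with IFN-γ and 11.1 FPKM without. The ratio of DDIT3 to ATF4 was 0.0540, 0.0492, 0.0447 and 0.0466 in IFN-γ libraries and 0.0343, 0.0352, 0.0306 and 0.0411 in untreated libraries.

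TRIB3, ASNS and CHAC1 are further targets of the ATF4 pathway, and none was called. TRIB3, a pseudokinase, had 7.23, 7.40, 8.02 and 8.44 FPKM in IFN-γ libraries and 5.84, 6.50, 7.13 and 7.17 FPKM in untreated libraries, just without overlap (change 0.22, limma adjusted p = 0.0776). ASNS, the asparagine synthetase, had 15.7, 17.0, 15.8 and 20.8 FPKM in IFN-γ libraries and 14.7, 15.3, 15.4 and 15.0 FPKM in untreated libraries. Replicate 4 was well above the other 3 treated libraries, and the change of 0.19 (limma adjusted p = 0.142) was 0.094 without it. CHAC1, which degrades glutathione, had 1.27, 0.840, 0.630 and 1.29 FPKM in IFN-γ libraries and 1.02, 1.29, 0.769 and 0.636 FPKM in untreated libraries. Its groups overlapped fully, and at about 19.6 to 49.51 fragments per library its interval ran from -0.49 to 0.69, which holds changes of the size of that of DDIT3 in either direction.

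The C/EBP-ATF response element, TGATG and AA with 1 base between them, is the sequence that ATF4 binds with C/EBP factors. It was found in 3.62% of the windows and in 3 of the 39 members with a window, HERPUD1, ASNS and CHAC1. ASNS and CHAC1 are shown because they are long-known ATF4 targets that were not called. The match of ASNS (chr7:97872464-97872481, minus strand) is on the gene's strand, and that of CHAC1 (chr15:40953257-40953274, plus strand) appears reversed, both in capitals.
ASNS: aggcaTGATGAAActtcc
CHAC1: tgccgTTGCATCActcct

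Among the cytosolic and mitochondrial heat shock genes, 4 of 15 rose, against 13.3% of all genes tested, and HSP90 and HSP40 genes led them. HSP90AA1, the stress-inducible HSP90, had 826, 862, 822 and 827 FPKM in IFN-γ libraries and 662, 678, 690.0 and 672 FPKM in untreated libraries. All treated libraries were above all untreated ones, and the change was 0.30 on the log2 scale (SE 0.052, limma adjusted p = 0.00186). HSP90AB1, the constitutive HSP90, had 995, 1008, 1022 and 1055 FPKM in IFN-γ libraries and 987, 1002, 1005 and 1029.9 FPKM in untreated libraries. These groups overlapped, and the change of 0.02 had an interval of -0.11 to 0.15. The ratio of HSP90AA1 to HSP90AB1 was 0.830, 0.855, 0.804 and 0.784 in IFN-γ libraries and 0.671, 0.677, 0.686 and 0.652 in untreated libraries, with no overlap.

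DNAJA1, an HSP40 that hands proteins to HSP70, had the largest change among the heat shock members. It had 258, 265, 261 and 286 FPKM in IFN-γ libraries and 205, 202, 209 and 201 FPKM in untreated libraries, far apart. The change was 0.39 (SE 0.044, limma adjusted p = 1.23e-04) and 0.36 without IFN-γ replicate 4. After quantile normalization it was 0.24. DNAJB1, the main heat-inducible HSP40, had 29.2, 28.9, 30.7 and 29.9 FPKM in IFN-γ libraries and 26.4, 26.3, 26.6 and 27.0 FPKM in untreated libraries. The libraries within each group were close, and a rise of 0.16 passed the test (limma adjusted p = 0.00906), though neither after quantile normalization nor under TPM, where it was 0.07. BAG3, an HSP70 co-chaperone that directs proteins to autophagy, had 13.3, 12.9, 13.4 and 14.5 FPKM in IFN-γ libraries and 11.7, 12.02, 12.1 and 12.05 FPKM in untreated libraries. It rose by 0.18 (limma adjusted p = 0.0227), and lost its call in 7 of the 19 alternatives, among them leaving out any untreated replicate, and was 0.09 under TPM.

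The HSP70 genes best known as HSF1 targets did not pass the test. HSPA1A had 9.52, 13.2, 13.1 and 10.6 FPKM in IFN-γ libraries and 12.4, 12.02, 12.4 and 11.4 FPKM in untreated libraries. HSPA1B had 11.9, 16.6, 17.1 and 15.5 FPKM in IFN-γ libraries and 16.1, 15.8, 13.7 and 14.5 FPKM in untreated libraries. These are near-identical copies whose reads the counting may divide either way. Their sum was 21.4, 29.8, 30.2 and 26.1 FPKM in IFN-γ libraries and 28.4, 27.8, 26.2 and 25.8 FPKM in untreated libraries, with IFN-γ replicate 1 below and replicates 2 and 3 above all untreated libraries. The changes were -0.07 for HSPA1A (95% interval -0.29 to 0.16) and 0.02 for HSPA1B (95% interval -0.22 to 0.26). HSF1 itself had 26.1, 26.1, 29.05 and 26.2 FPKM in IFN-γ libraries and 27.7, 25.3, 27.3 and 26.6 FPKM in untreated libraries, overlapping, with an interval of -0.10 to 0.12.

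HSPA8, the constitutive HSP70, had 779, 826, 813 and 902 FPKM in IFN-γ libraries and 759, 782, 771 and 777 FPKM in untreated libraries. Replicate 4 was highest and the lowest treated library lay among the untreated ones, with a change of 0.10 (95% interval -0.04 to 0.24) that was 0.06 without replicate 4. After IFN-γ, HSPA8 and HSP90AA1 were at 830.0 ± 51.6 and 834 ± 18.9 FPKM, closer than their spread, whereas in untreated cells HSPA8 was at 772 ± 9.99 FPKM and HSP90AA1 at 675 ± 11.6 FPKM. HSPB1, the small heat shock protein HSP27, had 106, 100.2, 115 and 135 FPKM in IFN-γ libraries and 97.0, 97.0, 89.6 and 97.4 FPKM in untreated libraries. The groups did not overlap, and the change of 0.25 just missed the threshold (limma adjusted p = 0.0516). Without IFN-γ replicate 4 it was 0.17 and called (limma adjusted p = 0.0253).

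The mitochondrial chaperonin HSPD1 (HSP60) and its partner HSPE1 (HSP10) share a start region on opposite strands. HSPD1 averaged 569 ± 29.2 FPKM in IFN-γ libraries and 529 ± 7.13 FPKM in untreated libraries, without overlap. Its change of 0.10 was not called (limma adjusted p = 0.193) and was 0.07 and called without IFN-γ replicate 4 (limma adjusted p = 0.0361). HSPE1 averaged 280.4 ± 31.2 FPKM in IFN-γ libraries and 252 ± 12.5 FPKM in untreated libraries, with overlap and a change of 0.15 that was 0.074 without replicate 4. HSPA9, the mitochondrial HSP70, averaged 181 ± 4.75 FPKM in IFN-γ libraries and 184 ± 2.82 FPKM in untreated libraries, with a change of -0.02 (95% interval -0.10 to 0.06). The nucleotide exchange factors HSPH1 and HSPA4 had changes of 0.07 and 0.05 and were not called (limma adjusted p = 0.166 and 0.371), and the change of HSPA4 was 0.03 without IFN-γ replicate 4.

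The heat shock element that HSF1 binds was searched as 3 alternating units GAA and TTC with 2 bases between units. It was found in 0.49% of windows and in 5 of the 39 members with a window. DNAJA1 and HSP90AA1 of these rose, and HSP90AB1, HSPA8 and HSPD1 were not called. The 2 HSP90 genes are shown because they hold the element and differed in response, HSP90AA1 at chr14:102087115-102087137 on the minus strand and HSP90AB1 at chr6:44247826-44247848 on the plus strand, the nearer to the start of its 2 matches.
HSP90AA1: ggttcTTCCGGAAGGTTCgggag
HSP90AB1: gattgTTCTGGAAGCTTCtggat

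Summed over the 16 ER members, IFN-γ libraries had 1108 to 1209.6 FPKM and untreated libraries 799.9 to 824 FPKM. HSP90B1, PDIA6 and HSPA5 are the most abundant ER members and make up most of this sum and of its rise. They averaged 322, 257 and 151 FPKM in IFN-γ libraries, and 253, 116 and 99.3 FPKM in untreated libraries. Summed over the 15 heat shock members, IFN-γ libraries had 4205 to 4583 FPKM and untreated libraries 3882 to 3987 FPKM. HSP90AB1, HSPA8, HSP90AA1 and HSPD1 are the most abundant members and make up most of the second sum.

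Other genes of the same pathways were taken from lists of known function. The shares over all genes tested were 13.3% higher and 9.05% lower. Of 38 tested further heat shock genes, 8 rose and 2 fell, with a median change of 0.06 on the log2 scale, negative after quantile normalization and under TPM (-0.04 and -0.03). After quantile normalization 5 rose and 6 fell, under TPM 6 rose and 7 fell, and without IFN-γ replicate 4, 11 rose and 5 fell. Over the whole table, 1470 of 13598 genes rose and 2564 fell after quantile normalization. Under TPM 1143 of 13545 rose and 1764 fell, and without IFN-γ replicate 4, 2165 of 13598 rose and 1698 fell. FKBP4, an HSP90 co-chaperone of steroid receptors, averaged 94.4 ± 4.35 FPKM in IFN-γ libraries and 74.7 ± 0.900 FPKM in untreated libraries. It rose by 0.34 (limma adjusted p = 1.72e-04). PTGES3, the HSP90 co-chaperone p23, averaged 299.7 ± 19.3 FPKM in IFN-γ libraries and 244 ± 2.81 FPKM in untreated libraries, and rose by 0.30 (limma adjusted p = 0.00191). The ubiquitin gene UBB averaged 298 ± 35.2 FPKM in IFN-γ libraries and 244 ± 7.10 FPKM in untreated libraries. It rose by 0.28 (limma adjusted p = 0.022) and lost its call without IFN-γ replicate 3 or untreated replicates 1, 2 or 4. After quantile normalization the changes of FKBP4, PTGES3 and UBB were 0.21, 0.13 and 0.14. The genes that fell were the HSP70 co-chaperones BAG1 (-0.26) and BAG6 (-0.23). Of the 8 subunits of the cytosolic chaperonin TRiC, 0 were called by limma. At an unadjusted p under 0.05 in limma, 1 of them was higher, as were 2518 of all 13598 genes tested. After quantile normalization 2 of them fell, and without IFN-γ replicate 4, 1 rose.

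Of 55 tested further ER genes, 16 rose and 2 fell, against 13.3% and 9.05% of all genes tested. The median change of 0.06 was negative after quantile normalization and under TPM (-0.0037 and -0.03). After quantile normalization 9 rose and 9 fell, and under TPM 10 rose and 5 fell. Over the whole table, 1470 of 13598 genes rose and 2564 fell after quantile normalization, and 1143 of 13545 rose and 1764 fell under TPM. Without untreated replicate 4, 9 rose and 1 fell, and without untreated replicate 1, 10 rose and 1 fell. Over the whole table, 1500 rose and 868 fell without untreated replicate 4, and 1518 rose and 895 fell without untreated replicate 1. PDIA3 (ERp57), a disulfide isomerase that also serves in the loading of MHC class I molecules, averaged 140.4 ± 10.8 FPKM in IFN-γ libraries and 100.3 ± 2.39 FPKM in untreated libraries. It rose by 0.48 (limma adjusted p = 1.01e-04). The degradation genes EDEM2 and DERL1 rose by 0.47 and 0.45 (limma adjusted p = 0.002 and 1.09e-04). EDEM2 averaged 9.04 ± 1.01 FPKM in IFN-γ libraries and 6.47 ± 0.330 FPKM in untreated libraries, and DERL1 36.5 ± 2.40 FPKM in IFN-γ libraries and 26.6 ± 0.885 FPKM in untreated libraries. TXNDC5 and PDIA5, further members of the disulfide isomerase family, fell by 0.21 and 0.20. PDIA5 lost its call without a filter on low values, with the replicate block, and without IFN-γ replicates 1, 2 or 3 or any untreated replicate.

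Of 12 tested further genes around the unfolded protein response, 2 rose and 1 fell, with a median change of -0.00022. Of all genes tested, 13.3% rose and 9.05% fell. BAK1, a pro-apoptotic BCL2 family protein, averaged 9.91 ± 1.45 FPKM in IFN-γ libraries and 5.17 ± 0.321 FPKM in untreated libraries, and rose by 0.92 (limma adjusted p = 9.32e-05). TMBIM6, an ER membrane protein that restrains cell death, rose by 0.23 (limma adjusted p = 0.0198) and lost its call without untreated replicates 3 or 4, and its change was 0.10 after quantile normalization. It averaged 88.8 ± 7.92 FPKM in IFN-γ libraries and 75.7 ± 1.71 FPKM in untreated libraries. CREB3L4, a membrane-bound transcription factor related to ATF6, fell to 9.98 ± 1.302 FPKM in IFN-γ libraries, against 12.7 ± 0.666 FPKM in untreated libraries. Its change of -0.35 (limma adjusted p = 0.0206) lost its call without untreated replicates 1 or 4.

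Of 29 tested further integrated stress genes, 5 rose and 6 fell, against 13.3% and 9.05% of all genes tested. The median change of 0.02 was negative after quantile normalization and under TPM (-0.04 and -0.07). After quantile normalization and under TPM 5 rose and 8 fell. Over the whole table, 1470 of 13598 genes rose and 2564 fell after quantile normalization, and 1143 of 13545 rose and 1764 fell under TPM. Without IFN-γ replicate 2, 2 fell (ALDH1L2 and PHGDH), and 3 fell without IFN-γ replicate 1 or without untreated replicates 3 or 4. Over the whole table, 1029 genes fell without IFN-γ replicate 2 and 1051 without IFN-γ replicate 1. Without untreated replicates 3 or 4, 856 and 868 fell. The 5 that rose were PMAIP1, EIF2AK2, ATF3, TNFRSF10B and CEBPB. PMAIP1 (NOXA), a pro-apoptotic BCL2 family protein, averaged 24.1 ± 2.36 FPKM in IFN-γ libraries and 8.28 ± 0.414 FPKM in untreated libraries, and rose by 1.53 (limma adjusted p = 8.43e-08). EIF2AK2 encodes the eIF2α kinase PKR, a known interferon-induced gene. It averaged 64.3 ± 7.19 FPKM in IFN-γ libraries and 30.3 ± 0.476 FPKM in untreated libraries, and rose by 1.08 (limma adjusted p = 2.1e-06). ATF3, a stress-induced transcription factor, averaged 3.72 ± 0.266 FPKM in IFN-γ libraries and 1.82 ± 0.172 FPKM in untreated libraries, and rose by 1.00 (limma adjusted p = 3.52e-05). The 6 that fell were CTH, ALDH1L2, PSPH, PHGDH, VLDLR and SHMT2, by 0.22 to 0.47 on the log2 scale. PHGDH, PSPH and SHMT2 are enzymes of serine and glycine synthesis, ALDH1L2 is a mitochondrial folate enzyme, CTH makes cysteine, and VLDLR is a lipoprotein receptor. The serine synthesis enzyme PSAT1 and the folate enzyme MTHFD2 of the same list were not called. Their changes were 0.04 and 0.15 (limma adjusted p = 0.536 and 0.063).

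**Figure D4:**
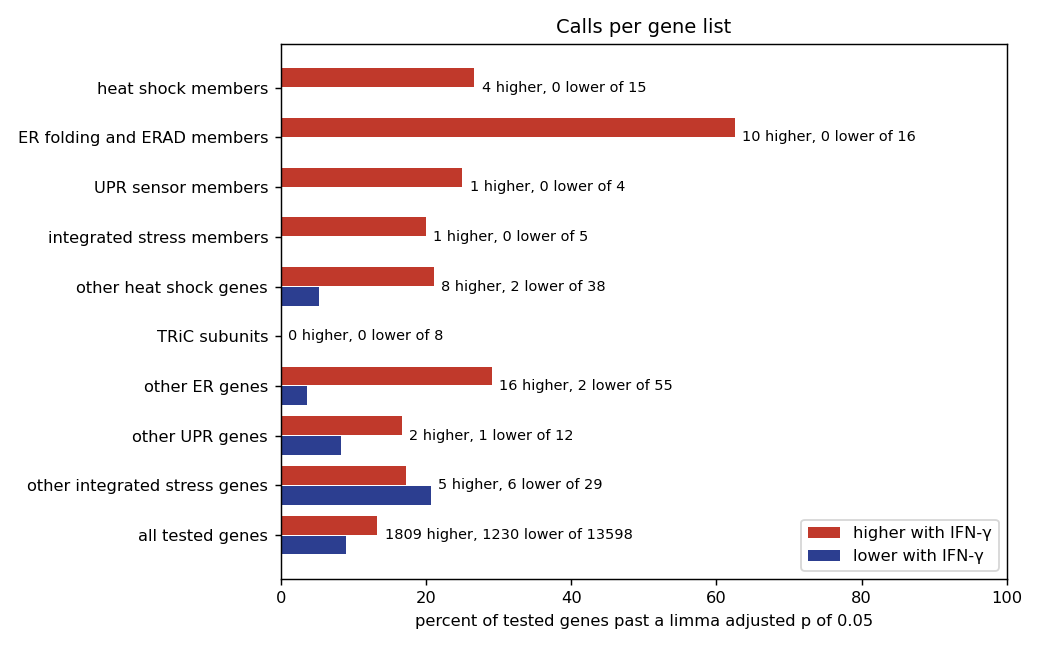
Percent of tested genes past a limma adjusted p of 0.05 in each list, red for higher and blue for lower with IFN-γ, with the counts beside the bars and all 13598 genes tested at the bottom. The ER folding members stand highest with 10 of 16 higher, and the other integrated stress genes hold 5 higher and 6 lower of 29.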

How the data were processed

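RNA sequencing of 8 libraries of M17 cells was used, 4 with IFN-γ and 4 untreated, grouped by the labels. The authors deposited FPKM per gene symbol, fragments scaled by transcript length and library size. Size factors, the median over genes of a library's value relative to the gene's geometric mean, were 0.999 to 1.005 in the 8 libraries. Which library size the submitters used was not tested. TopHat2, Cuffdiff and the build hg38 are named in the submitters' processing notes, without versions. The annotation is not given in the sources used here, and the kit does not mark strand, per the labels' protocols. No counts were given, so a count model was not used. FPKM is relative, and where it is scaled by the library total, very abundant RNAs can lower all other values.

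Genes averaging 0.5 FPKM or more (13598 of 26372 symbols) were fitted on log2(FPKM + 0.1) with limma 3.58.1 in R 4.3.3, with the trend option, two-sided, unblocked, with Benjamini-Hochberg adjustment over all of them and a threshold of 0.05. A fold change on this scale understates that of low genes. The fit was run on simulated data with independent normal noise per gene. That simulation holds no length-linked deviation like that of IFN-γ replicate 4 and no scaling difference, so it does not test the calls against these. The members and lists were chosen with earlier results of these data known. Values in each library are given for called members and a fixed set of known pathway genes, and up to 3 called genes with the largest change are given per further list; BAG1, BAG6, TXNDC5, PDIA5 and the other genes named without a level were chosen after their values were seen. Alternatives were other pseudocounts and filters, other scalings, other limma settings, the replicate block, each library left out and, chosen after seeing the data, removal of the trend of each library with transcript length (GENCODE 29). Depth was estimated from steps between low FPKM values and GENCODE transcript lengths. Promoter windows were from RefSeq (GRCh38.p14), and 39 of 40 members matched.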

Additional observations from a re-analysis of the deposited data

Results flagged for a closer look

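In 11 of 80 groups (40 members in 2 conditions), 1 library stood apart from the other 3 by a ratio of gap to range above 0.829, where chance gives about 1 group in 20. IFN-γ replicate 4 was the high library in 4 of them: PDIA6 (ratio 0.966, 274.7 FPKM against 251.8 FPKM in the nearest), HSPE1 (0.941, 327 against 266 FPKM), HSPA5 (0.901, 161 against 148 FPKM) and ATF4 (0.879, 203 against 171 FPKM). It was the low library for SEL1L (0.846, 13.0 against 14.1 FPKM). The part of transcript length in these values was not tested gene by gene.

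IFN-γ replicate 3 was high for HSF1 (0.953, 29.05 against 26.2 FPKM) and IFN-γ replicate 2 for HSP90AA1 (0.876, 862 against 827 FPKM). Low untreated libraries were replicate 3 for HSPB1 (0.949, 89.6 against 97.0 FPKM), replicate 1 for HSPA9 (0.942, 179 against 185 FPKM), replicate 4 for HERPUD1 (0.862, 14.5 against 16.8 FPKM) and replicate 2 for ATF6 (0.861, 18.2 against 19.2 FPKM).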

How the results depend on the processing

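Of the 16 members called higher, 10 kept the call in all 19 alternatives and 6 lost it in some, while 8 of the other members passed in some alternative and 16 in none. Under TPM, 10 members were higher and 1 lower, with 1143 genes higher over the whole table. After quantile normalization, 4 members were lower (ATF4, ATF6, HSPA4 and HSPA9), with 2564 genes lower over the whole table, and HSPA4 changed direction to -0.098. With the length trend removed, 1 member (ATF4) was lower. Leaving out 1 library at a time gave 12 to 17 members higher and 0 to 1 lower, with 1474 to 2165 genes higher and 854 to 1698 lower over the whole table. The cause of these differences was not tested. With the replicate number as a block, 14 members were higher, with 1639 genes higher and 1017 lower, and TRIB3 gained a call. Deviations of same-numbered libraries correlated at -0.03, 0.08, 0.06 and 0.06. These values are small, so the numbers were not taken to pair libraries, although 3 of 4 IFN-γ libraries correlated best with their own number. CHAC1 had the fewest fragments of the members, about 19.6 in its lowest library.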
